A study of Mus musculus with 17 samples.

Results

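The 9 genes described here encode factors of pluripotency, the capacity of early embryonic cells to form every tissue of the body. *Pou5f1*, *Sox2* and *Sall4* belong to its core, and *Otx2*, *Pou3f1*, *Zic2*, *Fgf5*, *Tcf7l1* and *Grhl2* are tied to the exit from the naive state. The genes were picked by symbol from an expression table of 54532 genes, and all 9 were found there. The table holds 17 RNA-seq libraries of R1/E, a mouse embryonic stem cell line, which were either wild-type or knocked out for *Usb1*, the exonuclease that trims the 3′ end of U6 snRNA. Both genotypes were taken at day 0 and at day 1 and day 3 of differentiation with retinoic acid (RA), at a dose not given in the sources used here. Wild-type cells at day 0 had 2 libraries and each of the other 5 groups had 3. All the knockout libraries came from the single edited line KO-1, so an effect of the knockout and a difference between clones cannot be told apart. The replicates are stated to be independent biological replicates of cultured cells.

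As background, Oct4 (the product of *Pou5f1*) and Sox2 bind DNA side by side at enhancers of stem cell genes, and Sall4 is a zinc finger partner of both. When stem cells leave the naive state they pass through a formative state, in which Otx2 and the POU factor encoded by *Pou3f1* redirect Oct4 to new enhancers, Zic2 and Grhl2 act on enhancers of the next stage, and the growth factor *Fgf5* serves as the usual marker. Tcf7l1 represses naive genes until Wnt signalling relieves it. RA drives stem cells out of pluripotency and towards differentiated lineages.

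Levels are given in TPM (transcript counts scaled by gene length and by library), and differences as log2 fold changes of TPM + 1 with their standard error, from limma fitted over 21871 genes. A gene passed the test at an adjusted p under 0.05, and was called where the change was also at least 2-fold. All 9 genes passed the filter of 1 TPM in at least 2 libraries, although *Fgf5* did so through only 2 libraries of day 3. Reads assigned to genes ranged from 15404379 to 17300186 over the libraries. Wild-type replicate 1 at day 0 and knockout replicate 1 at day 3 stood apart, with 239 and 1224 genes at a single read, where wild-type replicate 2 at day 0 had 1352 and the other 14 libraries had 2150 to 2467. Both wild-type libraries of day 0, the reference of that day, were thus low in this measure. At day 0 *Usb1* itself read 37.1 to 40.0 TPM in wild-type cells against 15.2 to 17.9 TPM in the knockout, and was lower in the knockout libraries at all 3 days, with log2 fold changes of −1.20, −1.34 and −0.93.

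The label "formative" describes here the assigned role of these genes, and whether any of the cells were in that state was not tested. *Fgf5*, the defining marker, never exceeded 1.37 TPM or 16 reads in a library, and *Otx2*, *Pou3f1* and *Zic2* peaked at 6.14, 13.9 and 12.6 TPM. The core genes *Pou5f1* and *Sox2* were far higher at day 0, with a lowest library of 873.0 TPM for *Sox2*. In bulk RNA, fewer cells expressing a gene and less RNA per cell cannot be told apart.

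**Figure D1:**
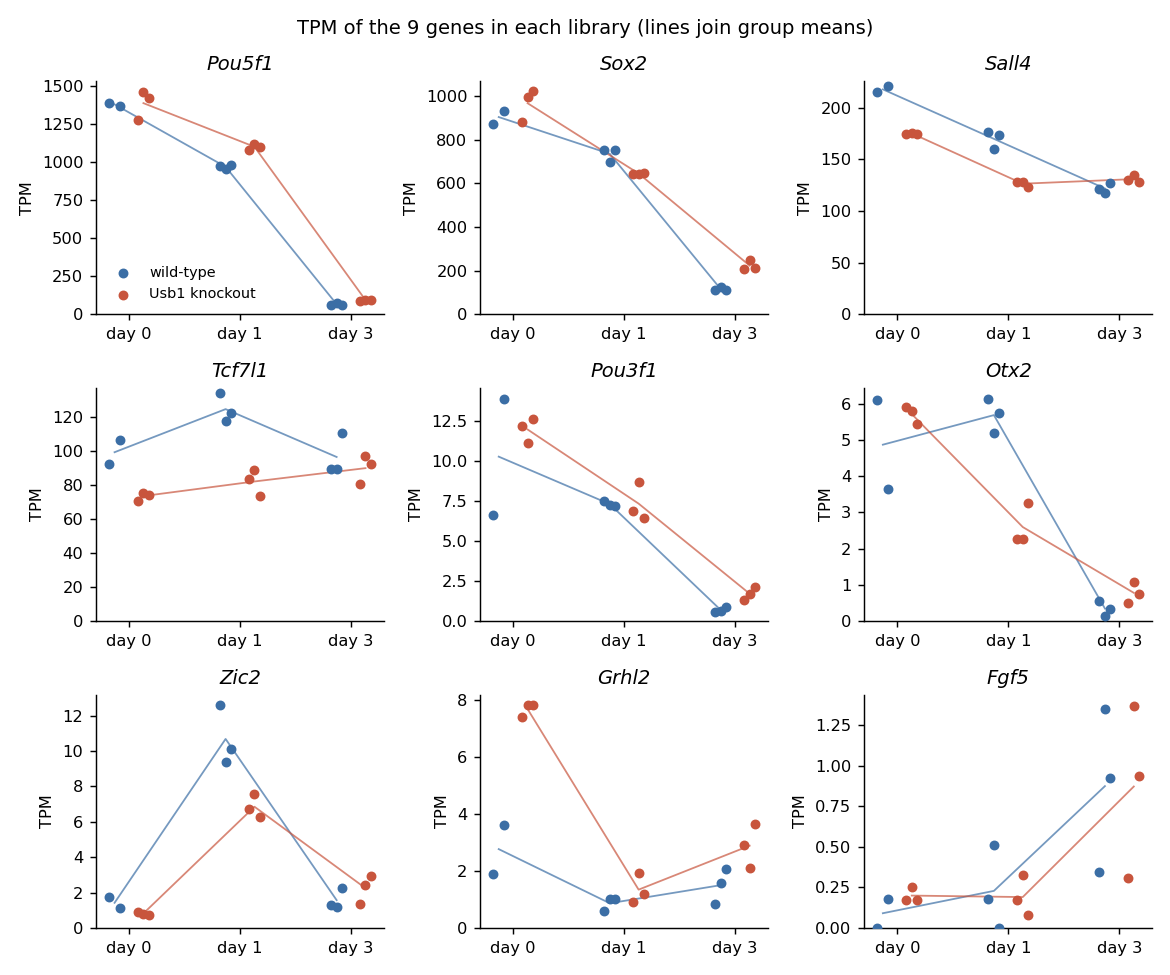
TPM of each gene (vertical axes, from 0, with a scale of their own) by day of RA treatment in wild-type (blue) and *Usb1* knockout (red) cells, with 1 point per library and lines joining the group means. *Pou5f1* and *Sox2* fell to 4.82% and 12.7% of their day 0 mean in wild-type cells, *Zic2* peaked at day 1, and *Grhl2* was highest in knockout cells at day 0.

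*Pou5f1* (ENSMUSG00000024406, GRCm38 chr17:35506018-35510772, plus strand, 6 merged exon blocks) was the most abundant of the 9 genes before RA. It read 1393.1 and 1371.4 TPM in wild-type cells at day 0, then 974.3, 956.3 and 982.6 TPM at day 1 and 63.8, 74.7 and 61.2 TPM at day 3. The knockout libraries held 1279.9, 1465.7 and 1425.4 TPM at day 0, 1084.5, 1121.1 and 1103.6 TPM at day 1, and 90.7, 95.0 and 95.5 TPM at day 3. Within each genotype no library of one day overlapped those of another. The fall was small in the first day, by a log2 fold change of −0.51 ± 0.07 in wild-type (adjusted p = 8.12e-05) and −0.33 ± 0.07 in knockout cells (adjusted p = 0.00157). It was steep from day 1 to day 3, at −3.85 ± 0.07 and −3.54 ± 0.07 (adjusted p = 1.55e-14 and 2.98e-14).

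The genotypes did not differ in *Pou5f1* beyond error at day 0, where the log2 difference was 0.01 with a 95% interval of −0.15 to 0.16. At day 1 every knockout library was above every wild-type library, but the difference of 0.18 ± 0.07 missed the threshold (adjusted p = 0.0717). It passed when libraries were scaled to an equal median (0.43, adjusted p = 0.0218) and with voom on reads recovered from the TPM (0.29, adjusted p = 0.00165). Under quantile normalization it did not pass (0.07, adjusted p = 0.565). At day 3 *Pou5f1* was higher in knockout cells by 0.49 ± 0.07 (adjusted p = 0.000315), a mean of 93.7 ± 2.62 against 66.6 ± 7.18 TPM (SD, n = 3 each). With only the libraries of day 3 in the fit the adjusted p became 0.0539. The share of the day 0 level left at day 3 was 4.82% in wild-type and 6.74% in knockout cells.

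*Sox2* (ENSMUSG00000074637, chr3:34650405-34652461, plus strand, 1 exon) followed a similar course until day 1 and then separated the genotypes. The wild-type values were 873.0 and 932.8 TPM at day 0, 752.3, 699.4 and 752.5 TPM at day 1, and 109.3, 123.5 and 112.1 TPM at day 3. Knockout libraries had 881.1, 995.6 and 1022.1 TPM at day 0, 644.5, 642.7 and 646.2 TPM at day 1, and 209.6, 248.7 and 210.6 TPM at day 3. Day 0 overlapped between the genotypes, all knockout libraries were the lower ones at day 1, and all were the higher ones at day 3.

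At day 3 *Sox2* stood at 193.9% of the wild-type mean in knockout cells, a log2 difference of 0.95 ± 0.07 (adjusted p = 2.95e-06) that fell just short of the 2-fold rule. The difference at day 1, −0.19 ± 0.07, missed the threshold (adjusted p = 0.0986), and it turned to 0.06 when libraries were scaled to an equal median. It passed under quantile normalization (−0.30, adjusted p = 0.014) but not with voom (−0.09, adjusted p = 0.454). From day 1 to day 3 the log2 fold change of *Sox2* was −2.67 in wild-type and −1.53 in knockout cells. This change differed between the genotypes by 1.13 ± 0.10 (adjusted p = 2.52e-05), which made it one of the 2 genes called in that comparison. Scaling to an equal median brought it to 0.91, below 2-fold but with an adjusted p of 0.00301.

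*Sall4* (ENSMUSG00000027547, chr2:168748332-168767943, minus strand, 7 exon blocks) changed least among the core genes. It read 214.7 and 220.5 TPM in wild-type cells at day 0 against 174.6, 175.7 and 174.8 TPM in knockout cells. At day 1 the values were 176.4, 159.6 and 173.2 TPM against 127.7, 128.4 and 122.9 TPM. At day 3 they were 120.8, 117.5 and 126.8 TPM against 129.8, 134.4 and 128.2 TPM. The knockout was thus the lower genotype without overlap at both earlier days, and the higher one, by a narrow margin, at day 3.

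The difference in *Sall4* was −0.31 ± 0.05 at day 0 (adjusted p = 0.00169), −0.42 ± 0.05 at day 1 (adjusted p = 2.91e-05) and 0.10 ± 0.05 at day 3 (adjusted p = 0.228). Neither of the first 2 held when libraries were scaled to an equal median, with differences of −0.19 and −0.18 (adjusted p = 0.135 and 0.101). Both held under quantile normalization (adjusted p = 0.00123 and 2.96e-05) and with voom (adjusted p = 0.00628 and 0.00015). Wild-type cells lost *Sall4* in both intervals, at −0.36 and then −0.48 on the log2 scale. Knockout cells lost it in the first day, at −0.47, and showed a further change of 0.05 ± 0.05 from day 1 to day 3 (adjusted p = 0.422).

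The promoters of *Pou5f1* and *Sox2*, the 2 core genes that fell most, are shown because the receptors for RA belong to the nuclear receptors, which as background bind repeats of a half-site spelled AGGTCA. RefSeq promoter windows were at hand for 5 of the 9 genes (*Pou5f1*, *Sox2*, *Otx2*, *Fgf5* and *Tcf7l1*). The 250 bases before the RefSeq start are printed 5′ to 3′ with that half-site, or its complement TGACCT, in capitals. The *Pou5f1* window is chr17:35505782-35506031 and the *Sox2* window chr3:34649745-34649994, both on the plus strand of GRCm38.p6. The RefSeq start is not the GENCODE gene start given above: it lies 14 bases inside *Pou5f1* and 410 bases before *Sox2*.
Pou5f1: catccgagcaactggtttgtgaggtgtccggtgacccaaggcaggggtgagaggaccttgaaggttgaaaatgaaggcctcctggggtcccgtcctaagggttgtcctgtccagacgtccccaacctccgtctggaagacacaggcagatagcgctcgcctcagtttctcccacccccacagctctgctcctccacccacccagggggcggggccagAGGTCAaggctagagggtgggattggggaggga
Sox2: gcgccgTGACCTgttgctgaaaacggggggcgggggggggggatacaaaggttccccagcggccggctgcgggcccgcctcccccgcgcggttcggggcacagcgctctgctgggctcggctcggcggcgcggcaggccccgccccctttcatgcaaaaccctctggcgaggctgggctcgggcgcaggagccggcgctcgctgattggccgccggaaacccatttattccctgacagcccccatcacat

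The half-site lay 33 bases before the RefSeq start in *Pou5f1*, in 1 of its 2 RefSeq windows, and 244 bases before it, on the other strand, in *Sox2*. It was in none of the windows of *Otx2*, *Fgf5* or *Tcf7l1*, and 14.0% of all 32851 mouse windows of the same length held it on either strand. The octamer ATTTGCAT, the sequence POU factors bind, was in no window of these 5 genes, against 1.60% of all windows. GGGCGG, the core of the GC box, was in windows of *Pou5f1*, *Sox2*, *Fgf5* and *Tcf7l1*, against 32.7% of all windows. These matches describe the letters of the windows, and binding was not measured.

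*Otx2* (ENSMUSG00000021848, chr14:48657677-48673819, minus strand, 7 exon blocks), which encodes a homeodomain factor, was low throughout and differed between the genotypes at day 1. Wild-type cells held 6.10 and 3.64 TPM at day 0, 6.14, 5.18 and 5.74 TPM at day 1, and 0.563, 0.150 and 0.330 TPM at day 3. Knockout cells held 5.90, 5.80 and 5.45 TPM at day 0, 2.26, 2.26 and 3.27 TPM at day 1, and 0.505, 1.08 and 0.756 TPM at day 3. The day 1 libraries of the knockout were all below those of the wild-type, while the genotypes overlapped at day 0 and day 3.

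In wild-type cells *Otx2* showed a change of 0.22 ± 0.22 in the first day (adjusted p = 0.474) and then fell by 2.32 on the log2 scale. In knockout cells it fell by 0.91 in the first day (adjusted p = 0.00302) and then fell by 1.02. At day 1 it was lower in the knockout, at −0.90 ± 0.20 on the log2 scale (adjusted p = 0.00667), with 45.7% of the wild-type mean. That adjusted p rose to 0.0511 with a pseudocount of 0.1. The change from day 1 to day 3 differed between the genotypes by 1.30 ± 0.28 (adjusted p = 0.0118), the second gene called there, whereas the difference in the first day, −1.13 ± 0.30, missed the threshold (adjusted p = 0.0655). The values rest on 103 to 118 reads in wild-type and 45 to 72 reads in knockout libraries at day 1.

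*Pou3f1* (ENSMUSG00000090125, chr4:124656807-124660655, plus strand, 1 exon), also known as Oct6, declined with RA in both genotypes. Its wild-type values were 6.64 and 13.9 TPM at day 0, 7.48, 7.23 and 7.21 TPM at day 1, and 0.561, 0.604 and 0.904 TPM at day 3. Its knockout values were 12.2, 11.1 and 12.6 TPM, then 6.89, 8.69 and 6.43 TPM, then 1.31, 1.72 and 2.10 TPM. The 2 wild-type libraries of day 0 lay on either side of all the knockout libraries. From day 1 to day 3 *Pou3f1* fell, with log2 fold changes of −2.30 in wild-type and −1.62 in knockout cells (adjusted p = 3.98e-07 and 1.39e-05). The knockout libraries were all higher at day 3, but the difference of 0.68 ± 0.21 missed the threshold (adjusted p = 0.0668). It passed on a pseudocount of 0.1 (1.20, adjusted p = 0.0146), under quantile normalization (0.70, adjusted p = 0.0243) and under equal median scaling (0.66, adjusted p = 0.0458). With voom on reads recovered from the TPM it did not pass (1.29, adjusted p = 0.157). The values of day 3 rest on 10 to 15 reads in wild-type and 26 to 38 reads in knockout libraries.

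*Zic2* (ENSMUSG00000061524, chr14:122475435-122479852, plus strand, 3 exon blocks), a zinc finger factor, was the only one of the 9 that was called as rising in the first day of RA. In wild-type cells it went from 1.74 and 1.10 TPM to 12.6, 9.36 and 10.1 TPM and returned to 1.28, 1.17 and 2.26 TPM at day 3. In knockout cells it went from 0.903, 0.800 and 0.754 TPM to 6.70, 7.60 and 6.26 TPM and then to 1.34, 2.45 and 2.95 TPM. Day 1 lay above day 0 and day 3 without overlap in both genotypes. The rise was 2.27 ± 0.24 in wild-type (adjusted p = 4.78e-06) and 2.11 ± 0.22 in knockout cells (adjusted p = 4.36e-06), and the interval of the difference between them was −0.86 to 0.53. The peak in knockout cells was 64.2% of that in wild-type cells without overlap, but the difference of −0.57 ± 0.22 missed the threshold (adjusted p = 0.0907).

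*Fgf5* (ENSMUSG00000029337, chr5:98254184-98277030, plus strand, 3 exon blocks) was near the limit of detection, with 0 to 6 reads in every library of day 0 and day 1 and 4 to 16 reads at day 3. At day 3 it had 0.346, 1.35 and 0.927 TPM in wild-type cells, and 0.310, 1.37 and 0.936 TPM in the knockout. The gene entered the test only through day 3, so its rise there was a condition of being tested. The difference between the genotypes at day 3 was −0.01 with an interval of −0.56 to 0.55.

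*Tcf7l1* (ENSMUSG00000055799, chr6:72626378-72789254, minus strand, 14 exon blocks), the Wnt pathway repressor also known as Tcf3, was steady in comparison. It read 92.4 and 106.2 TPM in wild-type cells at day 0, 134.0, 117.4 and 122.5 TPM at day 1, and 89.5, 89.2 and 110.8 TPM at day 3. In knockout cells it read 70.9, 75.5 and 74.2 TPM, then 83.6, 89.1 and 73.6 TPM, then 80.4, 97.3 and 92.1 TPM. The knockout was lower without overlap at day 0 and day 1, and the groups overlapped at day 3. The differences were −0.43 ± 0.11 at day 0 (adjusted p = 0.0248), −0.60 ± 0.10 at day 1 (adjusted p = 0.00103) and −0.10 ± 0.10 at day 3 (adjusted p = 0.697). The first was lost in 4 of the fits that left out 1 library of day 0, with adjusted p between 0.0531 and 0.106, and with only the libraries of day 0 in the fit (0.0899). The second kept its side of the threshold under every alternative run.

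*Grhl2* (ENSMUSG00000022286, chr15:37233036-37363569, plus strand, 17 exon blocks), a grainyhead factor of epithelial genes, was called between the genotypes at day 0. Its wild-type libraries had 1.90 and 3.62 TPM and its knockout libraries 7.39, 7.80 and 7.81 TPM, without overlap, or 278.2% of the wild-type mean. The difference was 1.25 ± 0.27 (adjusted p = 0.0104). Without wild-type replicate 1, one of the libraries that stood apart, it was 0.91 (adjusted p = 0.121), and with the libraries of day 0 alone the adjusted p was 0.118.

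*Grhl2* fell in the first day of RA, to 0.587, 1.01 and 0.997 TPM in wild-type cells and to 0.911, 1.93 and 1.18 TPM in knockout cells. The fall was called in knockout cells at −1.91 ± 0.25 (adjusted p = 3.72e-05). In wild-type cells it was −0.98 ± 0.27 (adjusted p = 0.0113), just short of the 2-fold rule. There it was called on a pseudocount of 0.1 (−1.53), under quantile normalization (−1.35), equal median scaling (−1.09) and voom (−1.61). With only the compared libraries in the fit the adjusted p was 0.0748. Without wild-type replicate 1 or 2 of day 0 the estimate was −1.32 or −0.64. At day 3 the wild-type libraries held 0.853, 1.59 and 2.05 TPM, below the knockout libraries at 2.92, 2.09 and 3.63 TPM. The knockout values there were all higher, but the difference of 0.65 ± 0.25 missed the threshold (adjusted p = 0.147).

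**Figure D2:**
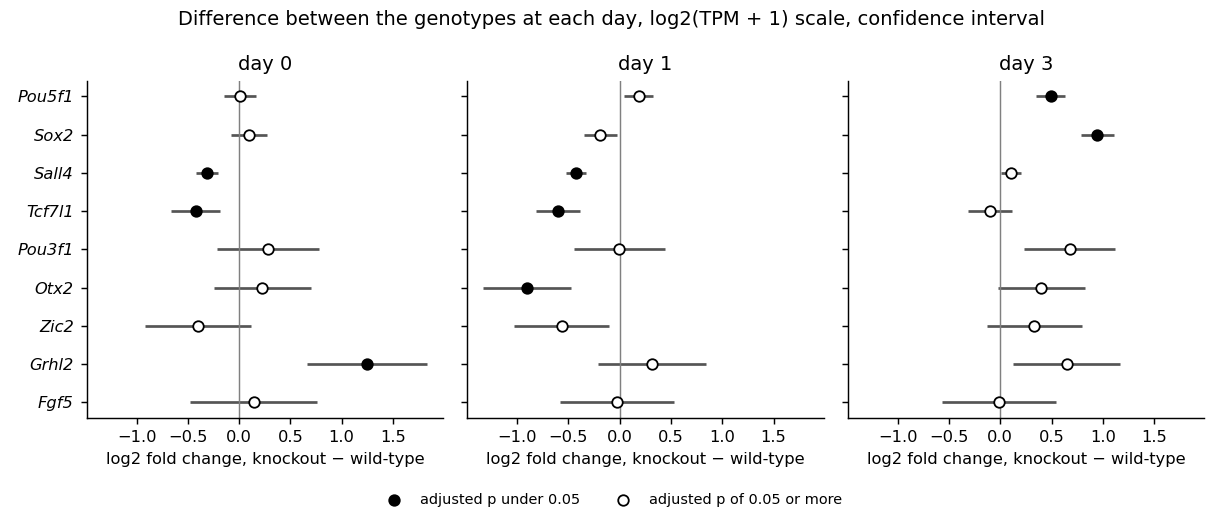
Log2 fold change of knockout over wild-type cells on the log2(TPM + 1) scale (horizontal axis) for the 9 genes at day 0, 1 and 3, with 95% intervals as lines and filled points where the adjusted p is under 0.05. *Sox2* and *Pou5f1* were to the right of 0 at day 3, *Sall4* and *Tcf7l1* to the left at day 0 and day 1, *Otx2* to the left at day 1, and *Grhl2* to the right at day 0.

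In the main fit, the genes that passed by the adjusted p at day 3 were not those of day 0 and day 1. *Pou5f1* and *Sox2* also passed at day 1 under some of the other fits given above. At day 0, 1 of the 9 genes was called (*Grhl2*, higher), against 3.05% of all genes tested in either direction and 1.60% called higher. That share rested on the wild-type libraries of day 0: the 668 genes behind it became 384 without replicate 1, 2282 without replicate 2, and 73 with the libraries of day 0 alone. At day 1 and day 3, 0 of the 9 were called by limma, against 2.22% and 1.29% of all genes. The fit of the recovered reads with voom called 1 gene at day 1 (*Otx2*, −1.04) and 0 at day 3. By the adjusted p alone, 3 genes passed at day 0 (*Grhl2* higher, *Sall4* and *Tcf7l1* lower), 3 at day 1 (*Otx2*, *Sall4* and *Tcf7l1*, all lower) and 2 at day 3 (*Sox2* and *Pou5f1*, both higher). The shares of all genes passing in that way were 11.9%, 17.3% and 7.52%. The median difference over the 9 genes was 0.10, −0.19 and 0.40 at the 3 days, against 0.00, −0.13 and 0.00 over all genes tested. The shift of all genes at day 1 depended on the scaling: 101 genes were called higher and 384 lower in knockout cells, but 169 and 217 under quantile normalization, and 170 and 198 under equal median scaling.

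The plot of the difference between genotypes shows these values for each day. The count of genes whose groups did not overlap went from 1 higher and 3 lower at day 0 to 1 higher and 5 lower at day 1 and to 5 higher and 0 lower at day 3. Over all genes tested, groups did not overlap for 36.6%, 39.8% and 22.0%. Comparisons of RA days share their libraries with these comparisons, so the counts below are not independent of them.

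In the RA response, 1 of the 9 genes was called from day 0 to day 1 in wild-type cells (*Zic2*, higher), against 13.9% of all genes in either direction and 9.99% called higher. The median of all genes moved by 0.17 in this comparison and by 0.00 under quantile normalization. In knockout cells 2 were called (*Zic2* higher and *Grhl2* lower), against 6.95% in either direction, 4.07% called higher and 2.87% called lower. Between day 1 and day 3 the same 5 genes were called lower in both genotypes (*Pou5f1*, *Sox2*, *Otx2*, *Pou3f1* and *Zic2*), against 15.2% of all genes called in wild-type and 15.3% in knockout cells, or 7.54% and 5.73% called lower. Over the whole 3 days, 4 genes were called lower in wild-type cells and 5 in knockout cells, the fifth being *Grhl2*, against 25.8% and 21.9% of all genes, or 9.68% and 8.04% called lower. By the adjusted p alone, 6, 7 and 6 of the 9 genes passed in wild-type cells for day 1 against 0, day 3 against 1 and day 3 against 0, where 38.0%, 43.8% and 52.1% of all genes did. In knockout cells 7, 6 and 8 passed, where 27.7%, 44.9% and 51.5% of all genes did. Leaving aside *Fgf5*, which was tested only because of day 3, 5 of 8 genes passed in wild-type and 8 of 8 in knockout cells for day 3 against 0. The call for *Otx2* from day 1 to day 3 in knockout cells, at −1.02, slipped under 2-fold without knockout replicate 3 of day 1 (−0.89) or knockout replicate 1 of day 3 (−0.90).

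**Figure D3:**
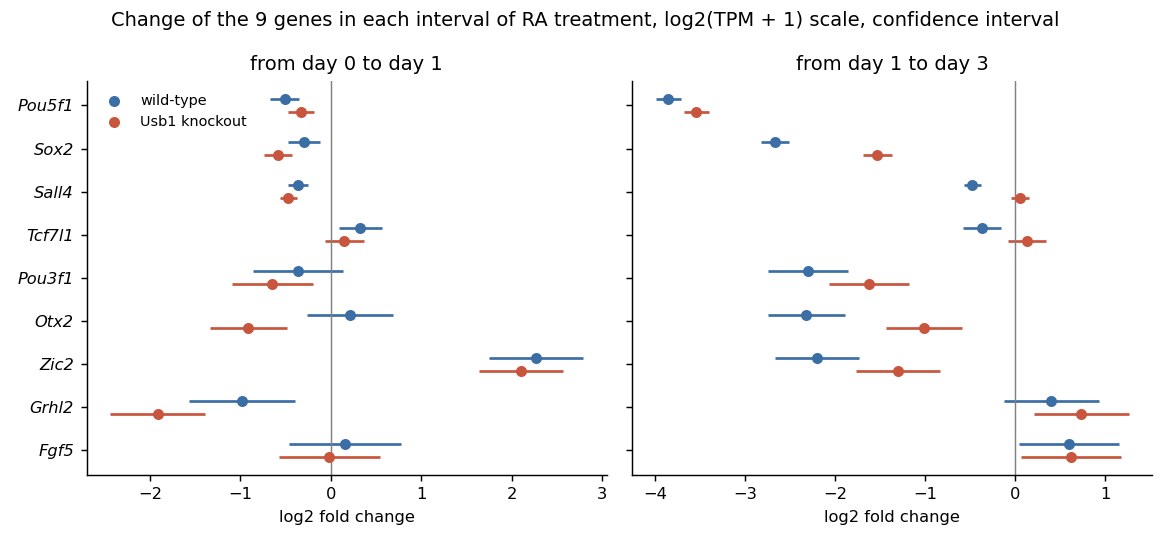
Log2 fold change on the log2(TPM + 1) scale (horizontal axis) of the 9 genes from day 0 to day 1 and from day 1 to day 3 of RA treatment, in wild-type (blue) and knockout (red) cells, with 95% intervals. Between day 1 and day 3 *Sox2* stood at −2.67 in wild-type and −1.53 in knockout cells, and *Otx2* at −2.32 and −1.02.

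The responses themselves were compared between the genotypes. By the adjusted p alone 0, 3 and 4 of the 9 genes passed for day 1 against 0, day 3 against 0 and day 3 against 1, where 2.23%, 6.15% and 7.61% of all genes did. Groups of different days did not overlap for 53.3%, 60.0% and 54.9% of all genes in wild-type and 44.9%, 56.8% and 51.9% in knockout cells, in the order day 1 against 0, day 3 against 0 and day 3 against 1, and for 6, 6 and 7 and for 7, 9 and 6 of the 9 genes. Without *Fgf5* the counts for day 3 against 0 were 5 and 8 of 8 genes. In the first day, limma called 0 of the 9 genes (0.860% of all genes), while voom called *Otx2* at −1.37 (adjusted p = 0.0327). The 188 genes behind that share became 1822 without wild-type replicate 2 of day 0, and 101 to 125 without replicate 1 or 3 of the knockout at day 0, replicate 1 or 3 of the wild-type at day 1, or any knockout replicate of day 1. Between day 0 and day 3, limma called 0 genes (2.42% of all genes) and voom called 0. The 529 genes behind that share became 1968 without wild-type replicate 2 of day 0. The 3 genes that passed there by the adjusted p alone all had a weaker fall in knockout cells. These were *Sox2* at 0.85 ± 0.11 (adjusted p = 0.000635), *Pou5f1* at 0.49 ± 0.10 (adjusted p = 0.0113) and *Sall4* at 0.42 ± 0.07 (adjusted p = 0.00307). Under equal median scaling *Sox2* still passed (adjusted p = 0.018), and *Pou5f1* and *Sall4* did not (0.217 and 0.102). From day 1 to day 3, 2 of the 9 were called (*Otx2* and *Sox2*), against 2.25% of all genes in either direction and 1.72% called higher, and the median over the 9 genes was 0.53 against 0.13 over all genes. The latter was 0.00 under quantile normalization and −0.05 under equal median scaling, and the genes called went from 376 higher and 117 lower to 239 and 193, and to 203 and 169.

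The RA response of the 9 genes is also seen in the plot of changes by interval. From day 1 to day 3 their estimates spread from *Pou5f1*, with the steepest fall, to *Fgf5* and *Grhl2*, above 0 in both genotypes. *Grhl2* passed by the adjusted p in knockout cells (0.73, adjusted p = 0.0244) but not in wild-type cells (0.40, adjusted p = 0.215). *Fgf5* passed in neither. Over the 17 libraries, *Pou5f1*, *Sox2*, *Otx2* and *Pou3f1* were correlated with one another at Pearson r of 0.91 to 0.98 on the log2(TPM + 1) scale. *Zic2* and *Tcf7l1* moved apart from them, with r of 0.27 and −0.08 to *Pou5f1*, and *Zic2* ran opposite to *Grhl2* (r = −0.72). These values describe libraries that share 3 time points and carry no test.

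Among 9039 protein-coding genes with a mean of at least 10 TPM, those whose course was most like that of each member were sought by the same r. For *Pou5f1* these were *Mcm3* and *Mcm5* (r = 0.997 and 0.996), subunits of the replicative helicase. For *Sox2* they were *Etv5* and *Rcor2* (0.995 and 0.992), of which *Etv5* encodes an ETS factor downstream of FGF signalling. *Etv5* fell from 332.5 and 320.8 TPM in wild-type cells at day 0 to 15.5, 17.1 and 15.6 TPM at day 3, and to 32.2, 37.6 and 40.1 TPM in knockout cells. The other leading genes were *Pdk1* for *Sall4* (0.976), *Ubtf* for *Otx2* (0.967), *Sinhcaf* for *Pou3f1* (0.991), *Map2k6* for *Zic2* (0.984), *Mtcl1* for *Tcf7l1* (0.960), *Mtmr12* for *Grhl2* (0.921) and *Zfp865* for *Fgf5* (0.853).

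Against the gene lists below stand the shares of all genes called. Between the genotypes these were 1.60% higher and 1.45% lower at day 0, 0.462% and 1.76% at day 1, and 0.521% and 0.773% at day 3. In the first day of RA they were 9.99% higher and 3.88% lower in wild-type cells, and 4.07% and 2.87% in knockout cells. For day 3 against day 0 they were 16.1% higher and 9.68% lower, and 13.8% and 8.04%.

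The 14 other formative and primed epiblast genes showed both directions, as the 9 genes did. In the first day of RA, 4 were called higher and 4 lower in each genotype. *Sall2* rose by 3.00 and 2.47 on the log2 scale in wild-type and knockout cells, and *Dnmt3a*, a de novo DNA methyltransferase, by 2.02 and 1.93, while *Foxd3*, a forkhead factor of the early epiblast, had −4.45 and −3.24. Between the genotypes *Dnmt3l*, a cofactor of the DNA methyltransferases, was called lower in knockout cells at all 3 days (−2.15, −1.20 and −1.37). *Sox3*, a close relative of *Sox2*, was called lower at day 0 and day 1 (−2.04 and −2.13). Its wild-type libraries of day 0 were uneven, at 23.6 and 8.53 TPM. *Sox3* was not called at day 3, but its knockout libraries (8.24 to 11.1 TPM) lay below the wild-type libraries (18.5 to 20.4 TPM). At day 3 the ETS factors *Etv4* and *Etv5* were higher in knockout cells by 1.44 and 1.14. *Etv5* belongs both to this list and to the genes most like *Sox2*. The counts for the list between the genotypes were 0 higher and 2 lower at day 0, 0 and 3 at day 1, and 2 and 1 at day 3. Under equal median scaling the count at day 1 was 1 higher and 1 lower. The median difference of the list was −0.17, −0.11 and 0.16 at the 3 days.

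**Figure D4:**
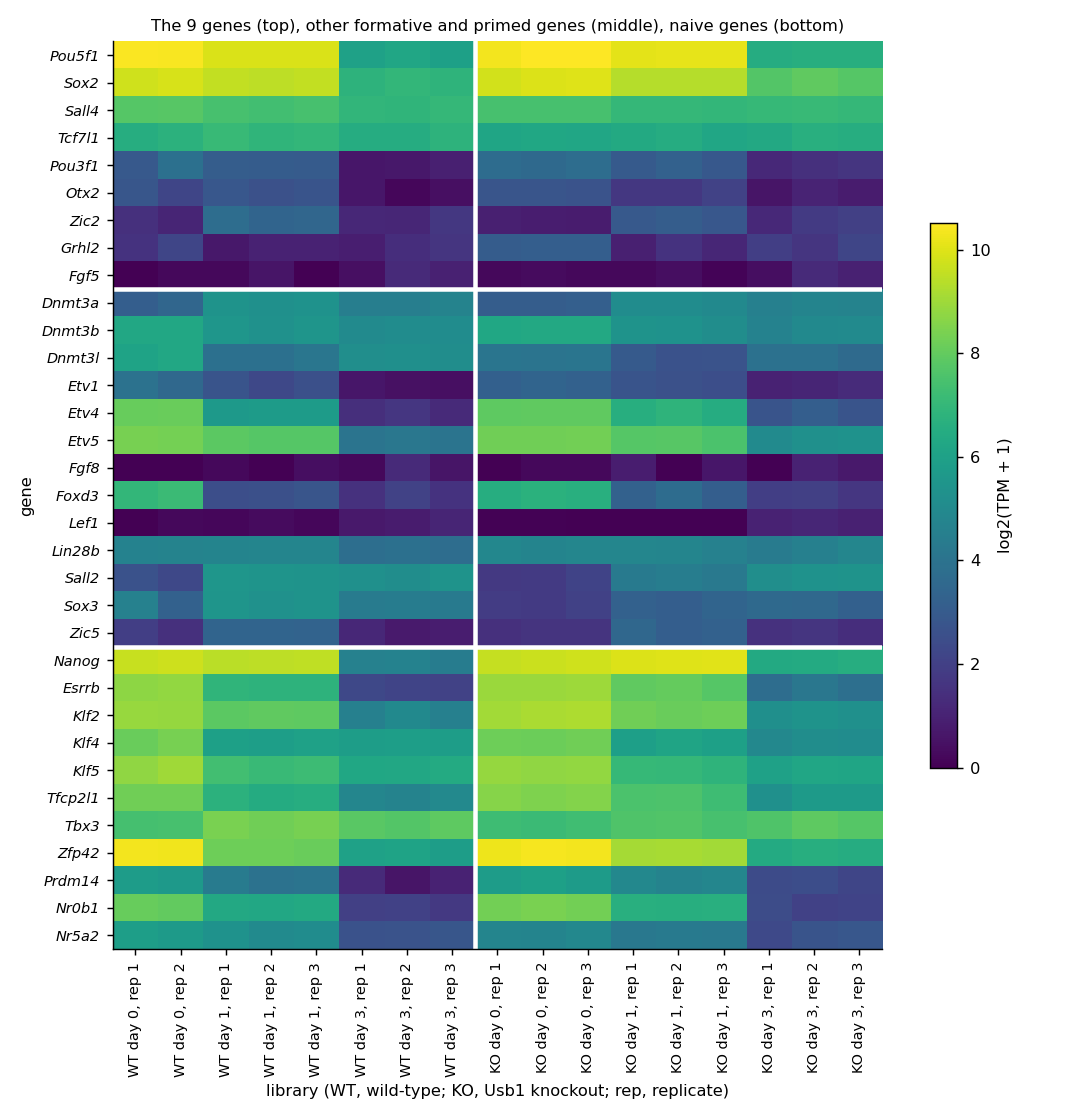
Level of the 9 genes (top), other formative and primed epiblast genes (middle) and 11 naive genes (bottom) in each of the 17 libraries, as log2(TPM + 1) on the colour scale, with 8 wild-type libraries on the left and 9 knockout libraries on the right. *Pou5f1*, *Sox2* and most naive genes darken at day 3, *Sall2* and *Dnmt3a* brighten from day 1, and *Dnmt3l* and *Sox3* are darker in the knockout libraries.

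In the first day *Pou5f1*, *Sox2* and *Sall4* passed as lower by the adjusted p in both genotypes, but fell by less than 2-fold. Most naive pluripotency genes were already called lower then. Of 11, 7 were called lower from day 0 to day 1 and 10 from day 0 to day 3 in each genotype, and 0 were called higher, with a median of −4.15 in wild-type and −3.20 in knockout cells to day 3, against 0.10 and 0.03 over all genes. *Esrrb*, an orphan nuclear receptor, fell to day 3, at −6.62 on the log2 scale in wild-type and −5.03 in knockout cells. At day 3, 3 of the 11 were called higher in knockout cells and 0 lower, among them *Nanog* (1.90) and *Esrrb* (1.76). *Nanog*, the homeodomain factor that works with Oct4 and Sox2, read 23.5, 24.2 and 20.2 TPM in wild-type cells at day 3, without overlap with the 82.0, 86.3 and 93.3 TPM of knockout cells. In the first day its mean went from 819.7 to 712.9 TPM in wild-type and from 810.9 to 1025.6 TPM in knockout cells. By the adjusted p alone, 10 naive genes were lower and 1 higher in that day in wild-type cells, and 9 and 2 in knockout cells. Of all genes, 38.0% and 27.7% passed there. All 7 genes listed as targets of Oct4 and Sox2, of which *Nanog* and *Zfp42* are also in the naive list, were called lower from day 0 to day 3 in each genotype. Of these 7, 3 were called higher in knockout cells at day 3, including the growth factor *Fgf4* (1.58), and 0 lower. By the adjusted p alone, 4 targets passed as higher and 2 as lower, and 6 naive genes as higher and 1 as lower. Over all genes, 7.52% passed in that way. The target *Spp1* had 142.3 to 158.0 TPM in knockout and 245.6 to 267.5 TPM in wild-type libraries at day 3. For the naive gene *Klf4* these were 29.2 to 34.5 and 57.4 to 58.9 TPM. The median difference at day 3 was 0.52 over the naive list and over the targets. This is the same value, because *Zfp42*, which is in both lists, is the middle gene of each. The heat map of pluripotency genes shows the same courses library by library.

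Of 23 family relatives of the 9 genes, 17 were tested. In the first day, 6 were called higher in each genotype, with *Zic5*, a neighbour of *Zic2* in the genome, up by 1.69 and 1.76 on the log2 scale. To day 3, 2 were called higher and 8 lower in wild-type cells, and 3 and 6 in knockout cells, with medians of −0.77 and −0.05. Among these *Sox15* fell in both genotypes. Its mean went from 39.8 to 4.05 TPM in wild-type cells and from 33.7 to 3.96 TPM in knockout cells (−2.80). Of 11 epithelial genes, which bear on *Grhl2*, 1 was called between the genotypes at day 0, the claudin gene *Cldn4*, higher in knockout cells by 1.54. By the adjusted p alone 5 passed at day 0 and 4 at day 1, all higher, with list medians of 0.47 and 0.28. At day 3, 1 passed as higher and 3 as lower, with a median of −0.15. Of all genes, 11.9%, 17.3% and 7.52% passed in that way at the 3 days. From day 0 to day 3, 6 of these 11 rose in wild-type and 5 in knockout cells, with medians of 1.19 and 0.53, led by the keratin genes *Krt18* (7.53 and 7.02) and *Krt8* (6.16 and 5.38).

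Markers of differentiated lineages moved in the same libraries, and their part in the values above was not tested. All 9 endoderm markers were called higher from day 0 to day 3 in both genotypes. Among them *Sox17* had at most 0.599 TPM before day 3, so its rise was a condition of being tested. The summed level of the 9 endoderm markers at day 3 was 1647.1 to 1981.5 TPM in wild-type libraries but 661.2 to 793.3 TPM in knockout libraries. Between the genotypes, 6 of them were called lower in knockout cells at day 1 and 5 at day 3, including *Gata4* (−1.73) and *Sox17* (−1.63), with list medians of −1.22 and −1.13. The 11 mesoderm markers summed at day 3 to 43.8 to 59.0 TPM in wild-type libraries, below the 94.5 to 101.8 TPM of the knockout, and 2 of 9 tested were called higher in knockout cells there (*Meox1* and *Hand1*), with a list median of 0.20. The 11 neural progenitor markers summed at day 3 to 103.9 to 114.0 TPM in wild-type and 138.9 to 160.3 TPM in knockout libraries. At day 0 their sums were 111.6 to 127.4 and 136.1 to 147.7 TPM. From day 0 to day 3 *Nes* was called higher in both genotypes. *Sox1* (−2.06 in wild-type and −1.72 in knockout cells) and *Tubb3* (−2.66 and −2.10) were called lower. Between the genotypes, 0 of 6 tested were called by limma at day 3. By the adjusted p alone 3 passed, all higher in knockout cells, with a list median of 0.44. Single genes, named after their values were seen, carried these sums at day 3. *Lama1* had 985.0 to 1264.6 TPM in wild-type and 338.9 to 423.2 TPM in knockout libraries, *Hand1* 25.9 to 37.1 and 59.2 to 69.5 TPM, and *Nes* 84.5 to 91.9 and 104.9 to 124.4 TPM. The 7 fibroblast markers summed to at most 9.01 TPM at day 0, with *Postn*, *Dcn* and *Lum* at 0 in all 5 libraries. At day 3 they summed to 44.5 to 54.2 TPM in wild-type libraries, below the 71.7 to 80.3 TPM of the knockout, and 1 of 5 tested was called higher (*Col3a1*), with a median of 0.69.

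Exons of 6 of the 9 genes overlap another annotated gene, over 168 to 526 bases, and the counting was not stated to use strand. The overlaps were 317 of 2248 exonic bases in *Pou5f1*, 526 of 5536 in *Sall4*, 168 of 4221 in *Otx2*, 330 of 3849 in *Pou3f1*, 179 of 3924 in *Tcf7l1* and 169 of 8613 in *Grhl2*. Reads from those stretches cannot be assigned to one gene. *Sox2*, *Zic2* and *Fgf5* had no such overlap.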

How the data were processed

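RNA-seq libraries of R1/E mouse embryonic stem cells, wild-type or *Usb1* knockout, at day 0, 1 and 3 of RA treatment were analysed, 17 in all. The authors prepared them with the NEBNext Ultra kit, ran them on a NovaSeq sequencer, and deposited TPM computed by the authors from gene length and reads per gene. The submitters' processing notes name HISAT2 2.1.0, StringTie 1.3.6 and GRCm38.p6. For their own differential expression the authors used DESeq2. The TPM were already scaled to library size and gene length, so no count model was the main test.

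Identifiers were matched to GENCODE M21 (54495 of 54532, and 53921 with the same symbol), which gave coordinates and exon lengths. Reads were recovered from TPM, exon length and the step of each library, and 95.9% to 96.7% of the values above 0 came out whole within 0.01. Reads on genes were 15404379 to 17300186 per library. The limits of counting error rest on these reads, which carry no molecular identifiers.

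limma 3.58.1 in R 4.3.3 was fitted on log2(TPM + 1) with the means of the 6 groups and a variance trend, for genes with at least 1 TPM in at least 2 libraries (21871 genes). A fold change on this scale understates the change of low genes. P-values, two-sided, were adjusted by Benjamini-Hochberg over all genes of a comparison. A call needed an adjusted p under 0.05 and at least a 2-fold change. Tables were made with pandas 2.3.3 and numpy 2.4.6 in Python 3.11.15, and figures with matplotlib 3.10.9. Motifs were counted on both strands of the 250 bases before each RefSeq start.

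The 9 genes and all gene lists were chosen with earlier results of these data known. All 9 genes are named in every comparison. One list gene is counted in its lists but is not reported here by itself. From each list at most 2 called genes with the largest rise and 2 with the largest fall in a comparison are named, and for each of the 9 genes up to 2 genes of like course. The alternatives were another pseudocount (0.1), other filters on low values, the adjusted p alone, quantile normalization, an equal median, a fit on only the compared libraries, a block for the replicate number, voom on the recovered reads, and leaving out each library in turn. Leaving out both libraries with few genes at a single read was added after seeing the data. Same-numbered replicates did not deviate together, with a mean correlation of −0.005 over 40 pairs against 0.003 over 80 pairs with different numbers.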

Additional observations from a re-analysis of the deposited data

Results flagged for a closer look

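Differences between the genotypes in the response to RA, found by the interaction term in limma, drew attention for 5 of the 9 genes. From day 0 to day 3 the fall was weaker in knockout cells for *Sox2* (0.85 on the log2 scale), *Pou5f1* (0.49) and *Sall4* (0.42). From day 1 to day 3 the fall was also weaker in knockout cells for *Otx2* (1.30) and *Sox2* (1.13), while the difference was 0.53 for *Sall4*, which had −0.48 in wild-type and 0.05 in knockout cells, and 0.50 for *Tcf7l1* (adjusted p = 0.0440), which had −0.37 and 0.13. In the first interval of RA, *Otx2* had already fallen in knockout cells, so its later fall began from 2.60 TPM against 5.69 TPM in wild-type cells. Under equal median scaling *Sall4* no longer passed from day 1 to day 3 (0.31, adjusted p = 0.0962). *Tcf7l1* lost its place in most of the other fits, with an adjusted p of 0.166 under equal median scaling, 0.059 under quantile normalization, and up to 0.117 without 1 library. The day 0 to day 3 differences share the day 3 libraries with the day 1 to day 3 differences.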

How the results depend on the processing

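How many of the 9 genes were called depended most on the 2-fold rule. By the adjusted p alone, the counts between the genotypes were 3, 3 and 2 at day 0, 1 and 3. They were 6 in wild-type and 7 in knockout cells from day 0 to day 1, 8 in knockout cells from day 0 to day 3, and 3 and 4 for the difference in response from day 0 and from day 1 to day 3. From day 0 to day 1 in wild-type cells 2 genes were called, in place of 1, on a pseudocount of 0.1, under quantile normalization, equal median scaling and voom, and without both libraries that stood apart. A pseudocount of 0.1 gave 1 call between the genotypes at day 3, voom 1 at day 1, and voom and the fit without both libraries 1 each for the difference in response from day 0 to day 1. The call at day 0 dropped to 0 with the libraries of the comparison alone and without both libraries. Equal median scaling left 1 call for the difference in response from day 1 to day 3 and turned *Tcf7l1* from day 0 to day 3 in knockout cells from 0.28 to −0.03. The causes were not tested.

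Leaving out 1 library gave 0 to 1 calls between the genotypes at day 0 and at day 1, and 0 at day 3. It gave 1 to 2, 4 and 5 in wild-type cells, and 2 to 3, 5 to 6 and 4 to 5 in knockout cells, for day 0 to 1, day 0 to 3 and day 1 to 3. For the differences in response the counts were 0 to 1, 0 and 2 to 3. The replicate block gave 2 calls from day 0 to day 1 in wild-type cells and changed no other count by over 1.5 times. The samples share only a number, and pairing was not used.

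Depth limits *Fgf5*, with at most 16 reads, and *Otx2* at day 3, with 3 to 20 reads. It also limits *Pou3f1* at day 3, with 10 to 15 reads in wild-type and 26 to 38 in knockout libraries. *Zic2* had 14 to 24 reads in wild-type and 10 to 12 in knockout libraries at day 0. At day 3 *Zic2* had 16 to 28 and 20 to 40 reads.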
